A study of Mus musculus with 36 samples.

Results

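mmu-miR-155-5p, mmu-miR-146a-5p and mmu-miR-146b-5p (miR-155-5p, miR-146a-5p and miR-146b-5p below) are mature miRNAs whose genes are induced by the transcription factor NF-κB, and they were followed here through the prostates of mice with and without the ribonuclease ELAC2 and with and without the TRAMP tumour transgene. They were taken by name from the tables of normalised counts, where they are 3 of 1963 listed miRNAs, and all 3 had a mean of at least 1 CPM, the read count scaled to a total of 1e6 miRNA reads in every library. Small RNA was sequenced from the ventral and lateral prostate lobes of male mice of strain C56NL/6N. There were 12 groups of 3 libraries. At 10 and at 30 weeks of age, littermate controls (WT), mice homozygous for a prostate deletion of Elac2 (KO) and mice homozygous for the ELAC2 protein variant A537T in the whole body (A537T) were studied without TRAMP. The same 3 lines were studied with 1 copy of TRAMP, as WT-TRAMP, KO-TRAMP and A537T-TRAMP. In TRAMP the probasin promoter drives the SV40 T antigens in prostatic epithelium, and in KO it drives the Cre that removes exon 8 of Elac2. By this design other cells of the lobe keep Elac2 and carry no active transgene, which was not measured here. The A537T allele, by contrast, was present in every cell.

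NF-κB is held in the cytoplasm of resting cells by its inhibitor and enters the nucleus when a cell senses cytokines, microbial products or damage. miR-155, processed from the non-coding transcript Mir155hg, is induced in activated macrophages, dendritic cells and lymphocytes, and it promotes inflammatory signalling by lowering inhibitors such as SHIP1 and SOCS1. miR-146a and miR-146b act as a brake, since they lower the adaptors IRAK1 and TRAF6 through which Toll-like and interleukin-1 receptors activate NF-κB. All of these miRNAs are abundant in leukocytes, and epithelial cells also make miR-146.

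The mature sequences are given because the members differ in what they can pair with, and because miR-146a and miR-146b are near copies of each other that read counting has to separate. They come from RefSeq on build GRCm38.p6, where all 3 members and their other arms were found, are written 5′ to 3′, and have the seed, bases 2 to 8, in capitals.
miR-155-5p: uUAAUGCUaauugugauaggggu
miR-146a-5p: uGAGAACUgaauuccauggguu
miR-146b-5p: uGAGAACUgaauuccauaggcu
The seed of miR-155-5p was carried by no other of the 1679 mature mouse miRNAs in that table, and the seed of miR-146a-5p was carried by 2, which were miR-146a-5p and miR-146b-5p. Counted from 1 at the 5′ end, these are identical at 20 of 22 bases and differ by G18A and U21C from miR-146a-5p to miR-146b-5p. A read that ends before position 18 fits both, and how many such reads the counts hold was not tested.

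The hairpins show where the other arm lies. Both mature arms are in capitals, the 5p arm first.
Mir155: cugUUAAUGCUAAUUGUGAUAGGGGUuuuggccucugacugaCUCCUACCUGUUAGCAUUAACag
Mir146: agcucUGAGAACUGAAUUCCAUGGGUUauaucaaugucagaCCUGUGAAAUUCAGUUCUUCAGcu
Mir146b: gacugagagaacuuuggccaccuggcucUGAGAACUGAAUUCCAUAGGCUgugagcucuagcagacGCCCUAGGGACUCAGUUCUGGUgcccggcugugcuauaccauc
Mir155 lies on the plus strand at chr16:84714140-84714204 of GRCm38, inside an exon of the long non-coding RNA gene Mir155hg (chr16:84703167-84715245). Mir146, the mouse gene of miR-146a, lies on the minus strand at chr11:43374397-43374461, and no other annotated gene overlaps it. Mir146b lies on the plus strand at chr19:46342762-46342870 in an intron of the protein-coding gene Mfsd13a, which is on the same strand.

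The 36 libraries held 655455 to 21870210 miRNA reads. All but 1 had at least 4544257, and the shallowest was library 35, from A537T at 10 weeks, where miR-155-5p rested on 33 reads and its 50.3 CPM had a 95% Wilson interval of 35.9 to 70.7 CPM. Columns carried a library number and no replicate name, so the group of each library rests on the tables it occurs in, and the Elac2 transcript, which would check the genotypes, was not analysed here. Libraries 1 to 9 were TRAMP of 10 weeks, 10 to 18 TRAMP of 30 weeks, 19 to 27 no TRAMP of 30 weeks and 28 to 36 no TRAMP of 10 weeks, so any order of preparation that the numbers follow cannot be told apart from age and TRAMP. In every library the 7 listed epithelial miRNAs, which include the miR-200 family, held 3.91% to 10.0% of the reads. The 5 listed skeletal muscle miRNAs, among them miR-1a-3p, miR-206-3p and the miR-133 family, held 9.71% to 30.6% of the reads in WT, 0.734% to 6.49% in KO and 3.72% to 13.7% in A537T at 10 weeks, and 0.187% to 3.09% in the other 9 groups. The 4 listed stromal and smooth muscle miRNAs, among them miR-143-3p and miR-145a-5p, held 30.3% to 35.9% in KO, 18.2% to 39.9% in A537T and 7.08% to 30.2% in WT at 10 weeks, 7.499% to 22.6% with TRAMP at 10 weeks and 6.15% to 34.2% at 30 weeks, and their part in the member values was not tested.

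The members differed widely in level. miR-146a-5p had a mean of 2908 CPM and ranked 38 among all miRNAs, taking 0.0755% to 1.03% of the reads of a library. miR-146b-5p had a mean of 730 CPM and ranked 74. miR-155-5p had a mean of 54.5 CPM, ranked 187 and was detected in every library, with 33 to 1935 reads. The ratio of miR-146a-5p to miR-155-5p was 13.6 to 171 in single libraries. The other arms were nearly absent. miR-155-3p had at most 1.86 CPM and was at 0 in 9 libraries, and miR-146a-3p had at most 0.794 CPM and was at 0 in 6 libraries. A count of 0 allows up to 3 reads, and both stayed under the minimum mean and were not tested. miR-146b-3p was read in every library at 0.782 to 4.97 CPM and was 0.141% to 0.495% of the reads of its hairpin.

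**Figure D1:**
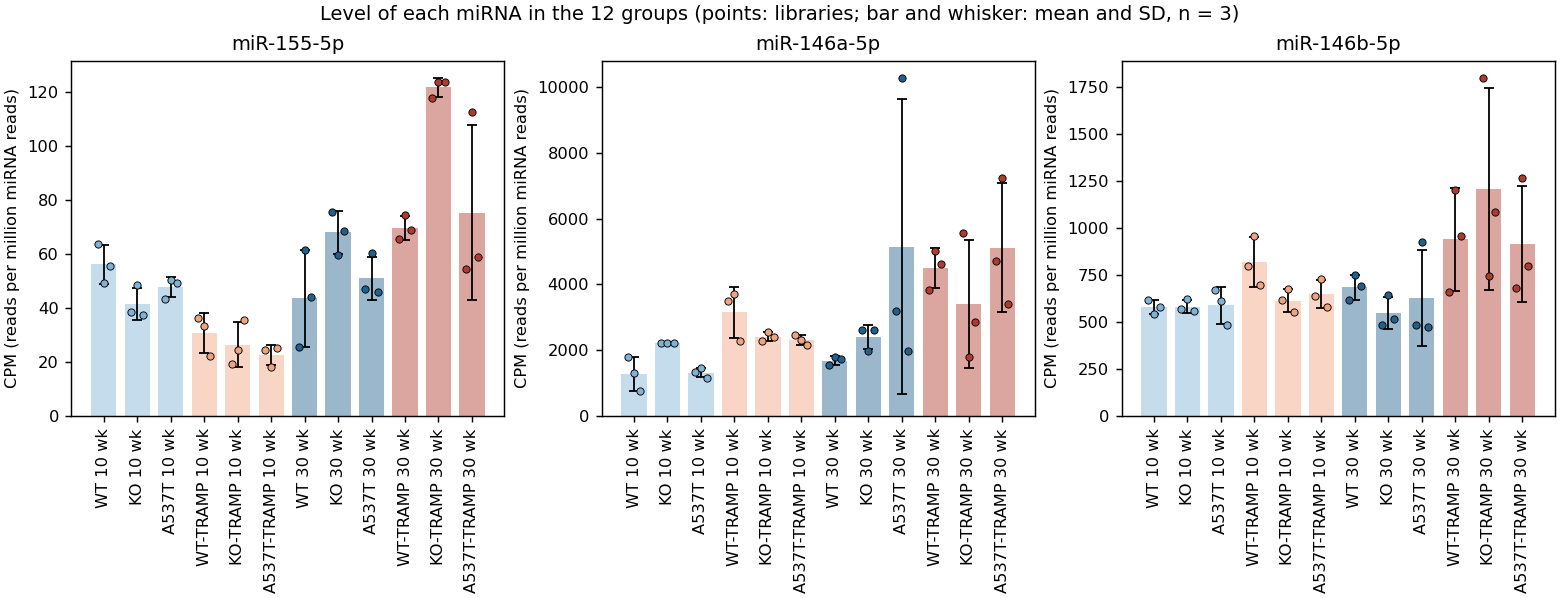
Level of the 3 members in CPM (linear axes from 0) in the 12 groups. Points are libraries, and bars and whiskers are the mean and SD of 3 libraries. miR-155-5p is lowest in the TRAMP groups of 10 weeks, at group means of 22.5 to 30.5 CPM, and highest in KO-TRAMP at 30 weeks, at 122 CPM; the mean of miR-146a-5p in A537T at 30 weeks rests on 1 library at 10283 CPM.

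Between the highest and the lowest group, the mean of miR-155-5p differed 5.42-fold, that of miR-146a-5p 4.02-fold and that of miR-146b-5p 2.21-fold. In descending order, miR-155-5p ran from KO-TRAMP at 30 weeks (122 ± 3.5 CPM, SD, n = 3) through A537T-TRAMP at 30 weeks (75.2 ± 32.4), WT-TRAMP at 30 weeks (69.5 ± 4.48), KO at 30 weeks (68.0 ± 7.91), WT at 10 weeks (56.1 ± 7.30), A537T at 30 weeks (51.0 ± 7.96), A537T at 10 weeks (47.7 ± 3.77), WT at 30 weeks (43.5 ± 18.04) and KO at 10 weeks (41.4 ± 6.00) to WT-TRAMP (30.5 ± 7.42), KO-TRAMP (26.3 ± 8.35) and A537T-TRAMP at 10 weeks (22.5 ± 3.72). Only 2 of the 11 neighbouring pairs in this order did not overlap, those below KO-TRAMP at 30 weeks and below KO at 10 weeks, and WT at 30 weeks, with a lowest library of 25.3 CPM, still overlapped WT-TRAMP and KO-TRAMP at 10 weeks.

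For miR-146a-5p, A537T (5151 ± 4488 CPM), A537T-TRAMP (5121 ± 1952), WT-TRAMP (4486 ± 607) and KO-TRAMP at 30 weeks (3399 ± 1943) came first. WT-TRAMP (3154 ± 774) and KO-TRAMP at 10 weeks (2405 ± 136), KO at 30 weeks (2392 ± 361), A537T-TRAMP (2308 ± 162) and KO at 10 weeks (2203 ± 1.15) followed. WT at 30 weeks (1679 ± 128), A537T at 10 weeks (1314 ± 145.7) and WT at 10 weeks (1282 ± 516) were the last 3. Neighbouring groups overlapped except on either side of WT at 30 weeks. For miR-146b-5p all 11 neighbouring pairs overlapped, from KO-TRAMP at 30 weeks (1209 ± 540 CPM), WT-TRAMP (941 ± 275) and A537T-TRAMP at 30 weeks (916 ± 311) to KO at 30 weeks (547 ± 85.2).

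The first question was how TRAMP changed the members in each line at each age. The test was limma on log2(CPM + 1) over the 514 miRNAs with a mean of at least 1 CPM, with all 36 libraries in 1 fit and Benjamini-Hochberg adjustment at 0.05, and differences below are on that log2 scale with their SE. The columns do not tie libraries to single animals, so p-values measure the spread between these samples. By this test, miR-155-5p fell with TRAMP in all 3 lines at 10 weeks and rose in WT and KO at 30 weeks. miR-146a-5p rose in WT at both ages and miR-146b-5p rose in KO at 30 weeks. For miR-155-5p the calls in KO at 10 weeks and in WT at 30 weeks were lost in 11 and 7 of 13 alternatives. In bulk tissue, fewer cells of a type and less RNA per cell cannot be told apart.

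At 10 weeks miR-155-5p stood at 63.7, 49.2 and 55.5 CPM in WT and at 36.1, 33.4 and 22.11 CPM in WT-TRAMP. It stood at 38.6, 48.3 and 37.3 CPM in KO and at 19.1, 24.4 and 35.5 CPM in KO-TRAMP. It stood at 43.4, 50.3 and 49.3 CPM in A537T and at 24.2, 18.2 and 24.97 CPM in A537T-TRAMP. Every TRAMP library was below every library without TRAMP of its line, a pattern that 17.9% of all tested miRNAs showed in WT, 37.2% in KO and 33.1% in A537T. The difference was -0.88 ± 0.27 in WT (limma, adjusted p = 0.0116), -0.67 ± 0.27 in KO (adjusted p = 0.0454) and -1.06 ± 0.27 in A537T (adjusted p = 0.00373). In these comparisons 34%, 42.8% and 35% of all miRNAs passed in either direction. Relative to the median miRNA, miR-155-5p moved by -0.82 in WT, -0.27 in KO and -0.84 in A537T. The call in KO was lost in 11 of 13 alternatives. Among them, the difference was -0.47 to -0.74 without any 1 of libraries 7, 8, 31, 32 and 33. It was -0.45 by edgeR (adjusted p = 0.111) and -0.29 by DESeq2 (adjusted p = 0.301). The call in WT was lost without library 3 (-0.67, adjusted p = 0.0831) and with only the compared libraries in the fit (adjusted p = 0.0660).

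At 30 weeks miR-155-5p was at 25.3, 61.4 and 43.9 CPM in WT and at 65.4, 74.2 and 68.8 CPM in WT-TRAMP. It was at 75.5, 59.7 and 68.6 CPM in KO and at 118, 124 and 124 CPM in KO-TRAMP. It was at 47.1, 60.2 and 45.8 CPM in A537T and at 54.2, 113 and 58.8 CPM in A537T-TRAMP. In WT and KO all TRAMP libraries were now above all others, as 23.3% and 32.1% of miRNAs were, while in A537T the ranges overlapped and library 14 alone was high. The difference was 0.75 ± 0.27 in WT (limma, adjusted p = 0.0354), 0.84 ± 0.27 in KO (adjusted p = 0.0150) and 0.48 ± 0.27 in A537T (adjusted p = 0.301), against 30.2%, 35.8% and 10.9% of miRNAs called. Relative to the median miRNA, miR-155-5p moved by 0.86 in WT, 0.50 in KO and 0.49 in A537T. The call in WT was lost in 7 of 13 alternatives, among them without any 1 of libraries 10, 11, 12, 19 and 21. Without library 19 the difference was 0.41. The call in KO was lost without library 23 (0.75, adjusted p = 0.0597), in limma under TMM scaling, described below (0.53, adjusted p = 0.0620), and by edgeR (0.53, adjusted p = 0.0625).

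Averaged over the 3 lines, TRAMP changed miR-155-5p by -0.87 ± 0.16 at 10 weeks (limma, adjusted p = 2.76e-05), or 0.547 times the level without TRAMP, and by 0.69 ± 0.16 at 30 weeks (adjusted p = 0.00065), or 1.61 times. The 30-week effect minus the 10-week effect was 1.56 ± 0.22 (adjusted p = 4.09e-05). These 3 contrasts called 65.4%, 45.1% and 37.2% of all miRNAs, and 28.2% of miRNAs rose in the difference. The median miRNA moved by -0.28, 0.07 and 0.29 in them, and relative to it miR-155-5p moved by -0.59, 0.62 and 1.27. Under TMM factors, edgeR's scaling that assumes most miRNAs do not change, the medians of all miRNAs shifted by over 0.1 in 19 of the 27 comparisons made, within -0.32 to 0.32. Over all alternatives and every library left out, the 10-week value of miR-155-5p stayed within -1.02 to -0.69, the 30-week value within 0.57 to 0.78 and their difference within 1.27 to 1.71, and all passed.

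**Figure D2:**
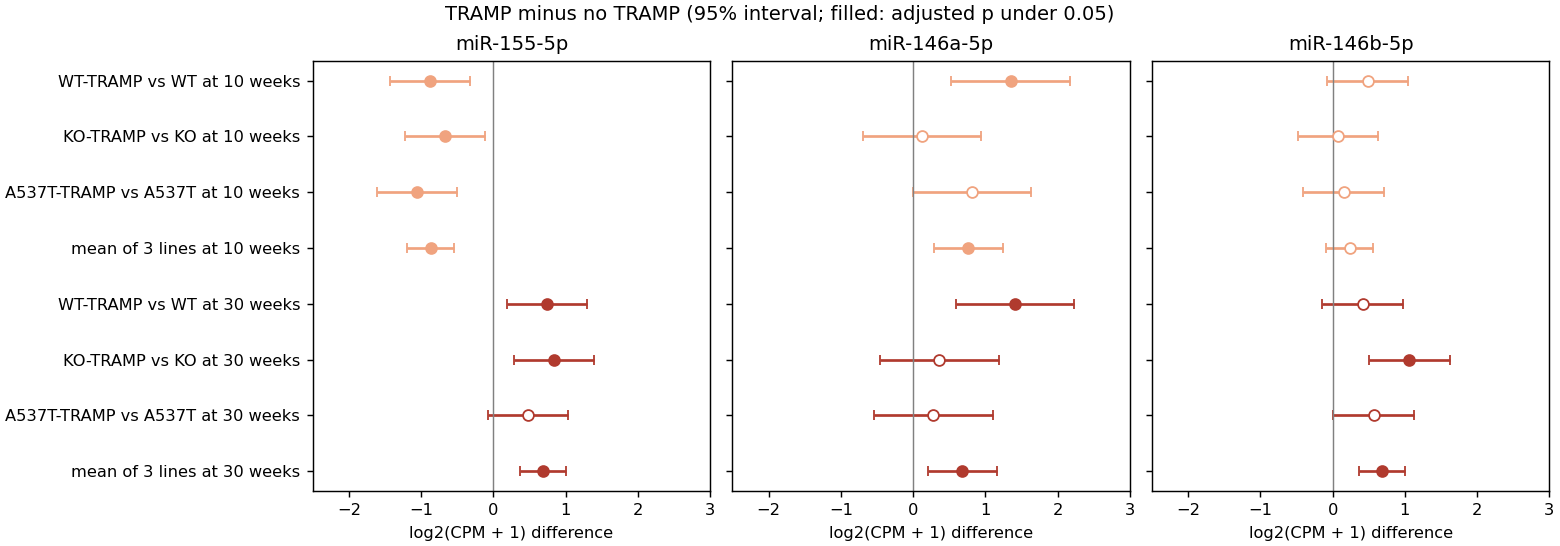
Difference between TRAMP and no TRAMP on the log2(CPM + 1) scale, with 95% intervals, for each line and for the mean of 3 lines at 10 weeks (light) and 30 weeks (dark). Filled points have an adjusted p under 0.05 in limma. miR-155-5p lies left of 0 at 10 weeks and right of 0 at 30 weeks, whereas every point of miR-146a-5p and miR-146b-5p lies right of 0, although the A537T point of miR-146a-5p at 30 weeks was -0.08 by edgeR.

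miR-146a-5p was higher with TRAMP in the WT line at both ages. At 10 weeks it was at 1786, 1305 and 755 CPM in WT and at 3482, 3710 and 2271 CPM in WT-TRAMP. At 30 weeks it was at 1535, 1779 and 1724 CPM in WT and at 3821, 5010 and 4627 CPM in WT-TRAMP. In both cases the groups did not overlap, as for 24.3% and 23.3% of miRNAs that were higher in TRAMP. The difference was 1.35 ± 0.40 at 10 weeks (limma, adjusted p = 0.00891) and 1.41 ± 0.40 at 30 weeks (adjusted p = 0.00966). Without library 30, the lowest WT library of 10 weeks, the first was 1.01 (adjusted p = 0.0701). All 5 skeletal muscle miRNAs fell with TRAMP in WT at 10 weeks, and with them taken out of the totals the difference was 1.03 (adjusted p = 0.0370) for miR-146a-5p and -1.19 (adjusted p = 0.00105) for miR-155-5p. Their further part in the result was not tested.

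In KO at 10 weeks miR-146a-5p was at 2204, 2203 and 2202 CPM and in KO-TRAMP at 2273, 2545 and 2397 CPM. In A537T it was at 1328, 1452 and 1162 CPM and in A537T-TRAMP at 2469, 2311 and 2144 CPM. TRAMP was above no TRAMP in every library of both lines, as for 23.2% and 16% of miRNAs, yet the differences of 0.13 ± 0.40 (limma, adjusted p = 0.811, 95% interval -0.70 to 0.95) and 0.82 ± 0.40 (adjusted p = 0.110, interval -0.01 to 1.64) did not pass. The A537T value passed under TMM scaling (0.98, adjusted p = 0.0387), by edgeR (0.98, adjusted p = 0.0459), by DESeq2 (1.06, adjusted p = 0.0184) and with only the compared libraries in the fit (adjusted p = 0.0116). At 30 weeks the ranges overlapped in both lines. KO-TRAMP spread from 1791 to 5558 CPM against 1975 to 2602 CPM in KO, a difference of 0.36 ± 0.40 (limma, adjusted p = 0.488). A537T held the highest value of the series, 10283 CPM in library 26, beside 3202 and 1966 CPM, and A537T-TRAMP held 4721, 7242 and 3399 CPM, a difference of 0.28 ± 0.40 (adjusted p = 0.744) that was -0.08 by edgeR. Averaged over lines, miR-146a-5p rose with TRAMP by 0.76 ± 0.23 at 10 weeks (adjusted p = 0.00516) and by 0.68 ± 0.23 at 30 weeks (adjusted p = 0.0171), and the ages differed by -0.08 ± 0.33 (adjusted p = 0.865, interval -0.75 to 0.59). Without library 27 the 30-week value was 0.51 (adjusted p = 0.0527).

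miR-146b-5p rose with TRAMP in the KO line at 30 weeks. KO libraries were at 483, 644 and 515 CPM and KO-TRAMP libraries at 1801, 743 and 1083 CPM, with no overlap, as in 32.1% of miRNAs. The difference was 1.06 ± 0.27 (limma, adjusted p = 0.00299), with an adjusted p of 0.0685 when only the compared libraries were in the fit. The median miRNA rose by 0.34 in this comparison, and relative to that median miR-146b-5p moved by 0.72. In WT it was at 617, 749 and 690 CPM against 657, 1205 and 960 CPM in WT-TRAMP, a difference of 0.42 ± 0.27 (adjusted p = 0.244). In A537T it was at 482, 924 and 473 CPM against 680, 1268 and 800 CPM in A537T-TRAMP, a difference of 0.57 ± 0.27 (adjusted p = 0.202), which passed without library 26 (0.88, adjusted p = 0.0350). Both of these ranges overlapped. At 10 weeks the 3 differences were 0.07 to 0.49 and none passed. The mean over lines was 0.24 ± 0.16 at 10 weeks (limma, adjusted p = 0.184) and 0.68 ± 0.16 at 30 weeks (adjusted p = 0.000782), and the difference between ages was 0.44 ± 0.22 (adjusted p = 0.112). That difference passed with skeletal muscle miRNAs taken out of the totals (0.60, adjusted p = 0.0336), without library 17 (0.55, adjusted p = 0.0457) and without library 26 (0.55, adjusted p = 0.0424).

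Leukocyte miRNAs were measured beside the members. The 6 listed, miR-142a-5p and miR-142a-3p of all blood cells, miR-150-5p and miR-342-3p of lymphocytes, and miR-223-3p and miR-511-3p of myeloid cells, were all read and tested, and none of them was at 0 in a whole group. Their summed level was 225 to 675 CPM in WT, 592 to 642 in KO and 467 to 543 in A537T at 10 weeks, and 522 to 877, 545 to 661 and 423 to 581 CPM in the matching TRAMP groups. At 30 weeks it was 327 to 563 CPM in WT, 613 to 630 in KO and 558 to 802 in A537T, and 1034 to 1260, 826 to 1804 and 1016 to 1552 CPM with TRAMP. The sum was higher with TRAMP in every library of all 3 lines at 30 weeks, and the ranges overlapped in all 3 lines at 10 weeks. In WT-TRAMP at 30 weeks miR-142a-5p and miR-142a-3p had means of 531 and 246 CPM of a mean sum of 1137 CPM. In WT they had 120 and 35 of 445 CPM, so most of the rise in the sum there was in miR-142a. In the mean TRAMP effect at 10 weeks 2 of the 6 rose, miR-142a-5p by 1.18 and miR-142a-3p by 1.03, and 3 fell, miR-223-3p by 1.04, miR-150-5p by 0.57 and miR-511-3p by 0.47. These are 5 of 6 called, where 65.4% of all miRNAs were, and the list's median was -0.42 against -0.28 for all miRNAs. At 30 weeks 3 of 6 rose, miR-142a-3p by 2.38, miR-142a-5p by 1.51 and miR-511-3p by 0.59, and none fell, where 45.1% of all miRNAs were called, with a median of 0.44 against 0.07. In the 30-week minus the 10-week effect 4 of 6 rose, where 28.2% of all miRNAs did. The median was 0.87 against 0.29. Other listed cell-type miRNAs also moved in the mean TRAMP effect at 10 weeks, where 65.4% of all miRNAs were called. Of 7 epithelial miRNAs 6 rose and 1 fell (median 0.64). All 5 skeletal muscle miRNAs (median -3.48) and all 4 stromal and smooth muscle miRNAs (-0.83) fell. The 2 endothelial miRNAs fell (-1.12), as did 2 of 3 red cell miRNAs (-1.54). Of 4 neuroendocrine miRNAs 1 rose, as did the liver miRNA miR-122-5p. The part of leukocyte content and of these other cell types in the member values was not tested.

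The other miRNAs of the pathway were called in both directions. Of 9 listed miRNAs that NF-κB induces, all tested, 2 rose in the mean TRAMP effect at 10 weeks (limma, adjusted p under 0.05), miR-147-3p by 1.09 and miR-21a-5p by 0.93, and 4 fell, with miR-365-3p the furthest at -1.77. At 30 weeks 4 rose, miR-147-3p by 2.498, miR-132-3p by 1.33, miR-212-3p by 0.81 and miR-21a-5p by 0.60, and 4 fell, miR-365-3p by 2.02, miR-222-3p by 1.06, miR-221-3p by 1.03 and miR-187-3p by 0.94. Of all miRNAs 65.4% and 45.1% were called in these contrasts, and the list's medians of -0.44 and -0.04 stood beside -0.28 and 0.07 for all miRNAs. In the 30-week minus the 10-week mean TRAMP effect 3 of the 9 rose and 2 fell, where 37.2% of all miRNAs were called. The list's median in this contrast was -0.17 against 0.29 for all miRNAs. The contrast was 1.40 to 1.42 for miR-147-3p and the CREB-responsive miR-132-3p and miR-212-3p, beside 1.56 for miR-155-5p. For miR-221-3p and miR-222-3p, which target the cell cycle inhibitor p27, the TRAMP effect at 30 weeks was lower by 0.76 and 0.62.

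Of 10 listed miRNAs that act on NF-κB or its activators, 9 were tested, since miR-302b-3p lay under the minimum mean. At 10 weeks 2 rose with TRAMP, miR-16-5p by 0.68 and miR-15a-5p by 0.43, and 6 fell, among them miR-199b-5p by 1.42, miR-223-3p by 1.04 and miR-199a-5p by 0.64. At 30 weeks the same 2 rose, by 1.15 and 1.03, and only miR-181b-5p fell, by 0.48. The shares called of all miRNAs were again 65.4% and 45.1%, and the list's median was -0.50 at 10 weeks against -0.28 for all miRNAs and 0.15 at 30 weeks against 0.07. miR-223-3p is on this list and on the leukocyte list.

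**Figure D3:**
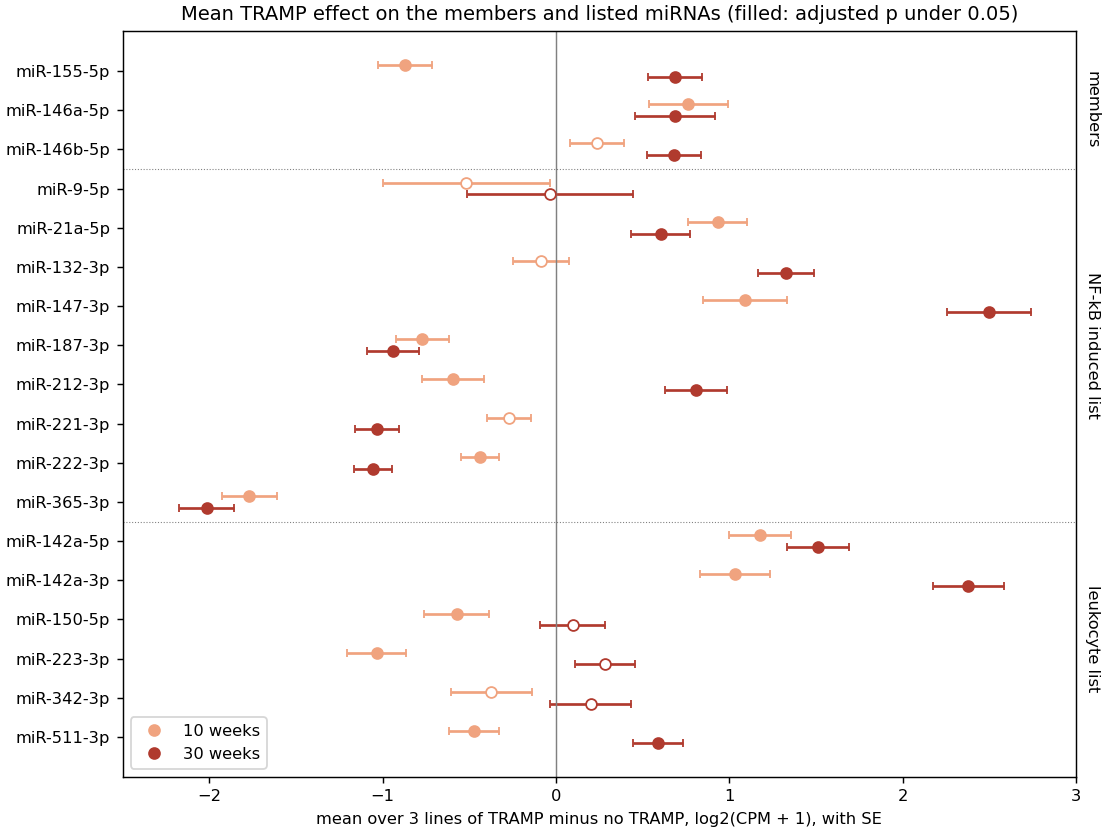
Mean TRAMP effect over 3 lines on the log2(CPM + 1) scale, with SE, at 10 weeks (light) and 30 weeks (dark), for the members, the 9 listed NF-κB-induced miRNAs and the 6 listed leukocyte miRNAs. Filled points have an adjusted p under 0.05 in limma. miR-155-5p, miR-212-3p and miR-511-3p are the ones with filled points on both sides of 0.

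Each member was also set against 1 leukocyte miRNA, miR-142a-5p, as a ratio of CPM. In the mean TRAMP effect at 10 weeks miR-142a-5p was among the 2 of 6 listed leukocyte miRNAs that rose, and 3 fell. A ratio to miR-142a-5p falls when miR-142a-5p rises, and ratios to the other listed leukocyte miRNAs were not taken. miR-155-5p was 0.444 to 0.804 times miR-142a-5p in WT at 10 weeks and 0.0797 to 0.0964 times in WT-TRAMP. At 30 weeks the ratio was 0.250 to 0.464 in WT and 0.115 to 0.149 in WT-TRAMP. In KO it was 0.259 to 0.352 at 10 weeks against 0.0671 to 0.124 in KO-TRAMP, and in A537T 0.388 to 0.504 against 0.0824 to 0.147. At 30 weeks KO held 0.281 to 0.378 and KO-TRAMP 0.142 to 0.410, and A537T held 0.189 to 0.237 and A537T-TRAMP 0.110 to 0.157. The ratio was lower with TRAMP in every library at both ages, except in KO at 30 weeks, where library 17 of KO-TRAMP reached 0.410 and the ranges overlapped. The ratio of miR-146a-5p to miR-142a-5p was also lower with TRAMP in the WT line, at 10.9 to 14.3 in WT and 7.68 to 9.90 in WT-TRAMP at 10 weeks, and at 13.4 to 15.2 and 7.74 to 9.16 at 30 weeks. Library 26 of A537T, the highest for miR-146a-5p, had a ratio of 32.3, against 5.88 to 16.8 in the other 35 libraries. For miR-146b-5p the ratio was lower in every TRAMP library in WT at both ages, KO at 10 weeks and A537T at 30 weeks. The ranges for miR-146b-5p overlapped in A537T at 10 weeks and in KO at 30 weeks.

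Likeness across the 36 libraries was measured as Pearson's r of log2(CPM + 1) against each of 297 other miRNAs with a mean of at least 10 CPM. The points share library totals and group structure, so r describes these libraries. miR-155-5p was most like miR-27a-5p (r = 0.79, Spearman's rho = 0.72), miR-501-3p (0.77, rho = 0.69), miR-223-3p (0.73, rho = 0.57), miR-34c-5p (0.68, rho = 0.67) and miR-150-5p (0.63, rho = 0.66). miR-146a-5p was most like miR-142a-5p (r = 0.85, rho = 0.90), then miR-142a-3p (0.75), miR-17-3p (0.72), miR-339-5p (0.71) and miR-374b-5p (0.70). miR-146b-5p was most like miR-21a-3p (r = 0.76, rho = 0.78), miR-31-5p (0.74), miR-21a-5p (0.72), miR-142a-5p (0.71) and miR-142a-3p (0.71). Among the members r was 0.64 between miR-146a-5p and miR-146b-5p, 0.44 between miR-155-5p and miR-146b-5p and 0.29 between miR-155-5p and miR-146a-5p. With miR-142a-5p, r of miR-155-5p was 0.40, and r of miR-146a-5p was 0.47 with miR-150-5p and 0.33 with miR-223-3p.

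**Figure D4:**
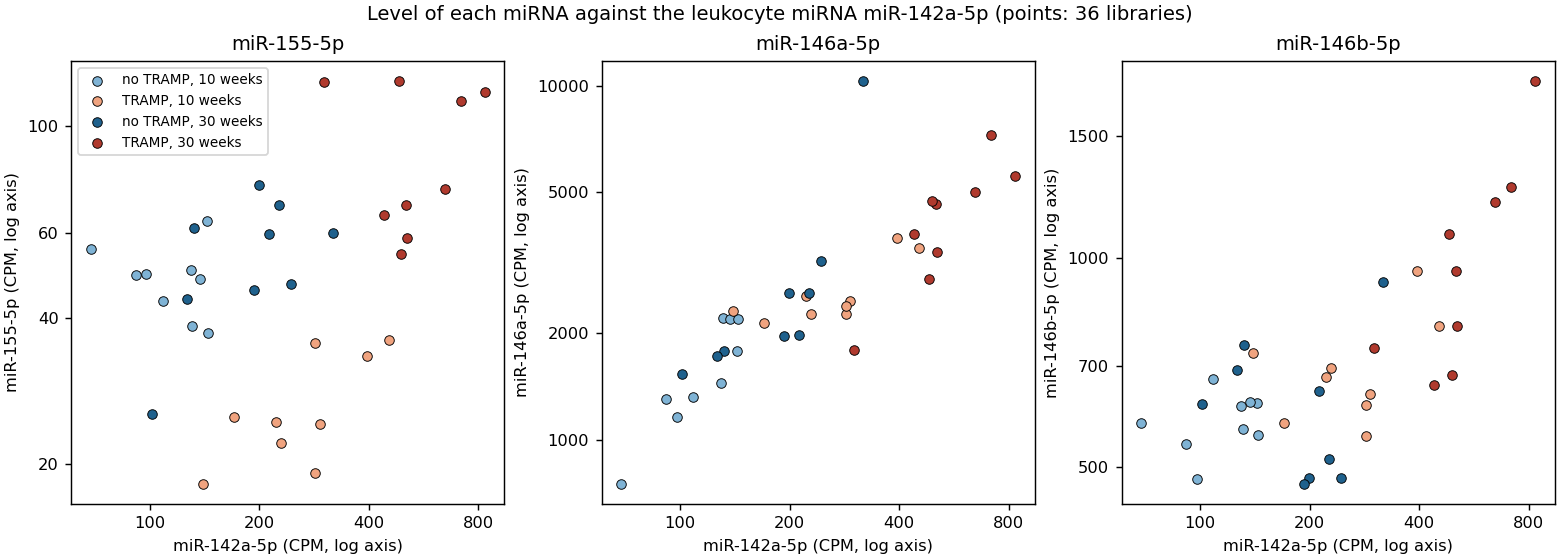
CPM of each member against the leukocyte miRNA miR-142a-5p in 36 libraries, on log axes, coloured by TRAMP and age. miR-146a-5p rises with miR-142a-5p (r = 0.85), with library 26 above the rest; miR-155-5p is 0.0671 to 0.147 times miR-142a-5p with TRAMP at 10 weeks, against 0.189 to 0.804 in all libraries without TRAMP, and TRAMP at 30 weeks overlaps both.

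With age, miR-155-5p rose in the TRAMP lines. From 10 to 30 weeks the difference was 1.19 ± 0.27 in WT-TRAMP (limma, adjusted p = 0.00778), 2.21 ± 0.27 in KO-TRAMP (adjusted p = 3.15e-06) and 1.63 ± 0.27 in A537T-TRAMP (adjusted p = 0.000775), against 7.59%, 22.2% and 5.45% of miRNAs called. These correspond to 2.28, 4.63 and 3.10 times the 10-week level, and every 30-week library was above every 10-week library, as in 17.9%, 19.3% and 19.5% of miRNAs. The call in WT-TRAMP was lost without library 3 (0.98, adjusted p = 0.0506). With only the compared libraries in the fit, the same differences had an adjusted p of 0.0607 in KO-TRAMP and 0.0628 in A537T-TRAMP. In the lines without TRAMP the difference was -0.44 ± 0.27 in WT (limma, adjusted p = 0.338), 0.70 ± 0.27 in KO (adjusted p = 0.0746) and 0.09 ± 0.27 in A537T (adjusted p = 0.867), against 9.53%, 14.8% and 15.2% of miRNAs called. The KO value passed by edgeR (0.91, adjusted p = 0.00593) and DESeq2 (1.15, adjusted p = 2.93e-05), and the ranges in KO, 37.3 to 48.3 and 59.7 to 75.5 CPM, did not overlap, as in 11.1% of miRNAs.

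miR-146a-5p rose with age in A537T by 1.62 ± 0.40 (limma, adjusted p = 0.00643), with no overlap of the groups, as in 12.8% of miRNAs, a call lost without library 26 (0.94, adjusted p = 0.0859). In the other 5 genotypes the age differences of miR-146a-5p were 0.11 to 1.08 and did not pass. miR-146b-5p rose with age in KO-TRAMP by 0.89 ± 0.27 (limma, adjusted p = 0.0209), from 554 to 674 CPM at 10 weeks to 743 to 1801 CPM at 30 weeks. The call was lost without any 1 of libraries 7, 9, 16 and 18, with 0.55 without library 16, and by edgeR (0.69, adjusted p = 0.0645). Its other arm, miR-146b-3p, rose in the same comparison by 0.98, where 22.2% of all miRNAs were called. That value rests on 5 to 24 reads per library at 10 weeks and 42 to 56 at 30 weeks. In the other 5 genotypes the age differences of miR-146b-5p were -0.10 to 0.45 and did not pass. Of the leukocyte miRNAs, 1 of 6 was higher with age in WT-TRAMP, 4 in KO-TRAMP and 5 in A537T-TRAMP, and none was lower. Of all miRNAs 7.59%, 22.2% and 5.45% were called in either direction. The list's medians were 0.44, 1.21 and 1.39 against -0.02, 0.24 and 0.13 for all miRNAs. In A537T without TRAMP 1 of 6 rose, miR-142a-5p by 1.14, where 15.2% of all miRNAs were called. The list's median there was 0.42 against -0.06. The part of leukocyte content in these age differences was not tested.

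The next question was whether loss or mutation of ELAC2 changed the members. No member passed in any of the 8 comparisons of a mutant line with its control, or in any of the 4 contrasts of the mutant effect with and without TRAMP. The KO and A537T comparisons of 1 background and age share their control libraries. Over all miRNAs the KO comparisons without TRAMP called 3.89% at 10 weeks and 0.584% at 30 weeks, and those with TRAMP called 0% and 6.23%. The A537T comparisons called 0.195% and 0% without TRAMP and 0% at both ages with it. In the 4 comparisons at 0%, 26 to 43 miRNAs had an unadjusted p under 0.05, edgeR called 0 to 7 and DESeq2 called 0 to 21.

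For miR-155-5p the value nearest to a call was KO-TRAMP against WT-TRAMP at 30 weeks, 118, 124 and 124 CPM against 65.4, 74.2 and 68.8 CPM. All KO-TRAMP libraries were higher, as in 17.9% of miRNAs. The difference was 0.80 ± 0.27 (limma, adjusted p = 0.0649, 95% interval 0.25 to 1.36). DESeq2 gave 0.73 (adjusted p = 0.0168) and a pseudocount of 10 CPM gave 0.73 (adjusted p = 0.0418). In this comparison 1 of the 6 leukocyte miRNAs was called, where 6.23% of all miRNAs were. It was miR-511-3p, with a mean of 2.99 CPM over all libraries, which rose by 0.83. The list's median was 0.37 against 0.10 for all miRNAs. The leukocyte miRNA miR-142a-5p was at 832, 301 and 484 CPM in KO-TRAMP and at 440, 647 and 505 CPM in WT-TRAMP. Without TRAMP at 30 weeks KO had 75.5, 59.7 and 68.6 CPM against 25.3, 61.4 and 43.9 CPM in WT, which overlapped, a difference of 0.71 ± 0.27 (limma, adjusted p = 0.127) that passed by edgeR (0.89, adjusted p = 0.0196) and DESeq2 (0.98, adjusted p = 0.00176). At 10 weeks all KO libraries were below WT, as in 11.1% of miRNAs, by -0.43 ± 0.27 (limma, adjusted p = 0.349), which DESeq2 gave as -0.68 (adjusted p = 0.0451). The other 5 differences of miR-155-5p were -0.41 to 0.30.

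miR-146a-5p was higher in every KO library than in every WT library at both ages without TRAMP, as in 15.4% of miRNAs at 10 weeks and 3.89% at 30 weeks. The differences were 0.87 ± 0.40 (limma, adjusted p = 0.215) and 0.50 ± 0.40 (adjusted p = 0.568). Without library 30, the lowest WT library of 10 weeks, the first was 0.53. At 10 weeks 4 of 5 skeletal muscle miRNAs were lower in KO than in WT, where 3.89% of all miRNAs were called. The first difference did not pass with these miRNAs taken out of the totals either, and their further part in it was not tested. A537T at 30 weeks was also above WT in every library, as in 7.59% of miRNAs, with 3202, 10283 and 1966 CPM against 1535, 1779 and 1724 CPM, a difference of 1.26 ± 0.40 (limma, adjusted p = 0.192) that passed by edgeR (1.59, adjusted p = 0.0353) and DESeq2 (1.64, adjusted p = 0.00105). With TRAMP the 4 differences of miR-146a-5p were -0.55 to 0.13, with overlapping ranges.

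miR-146b-5p differed from its control by -0.40 to 0.31 over the 8 comparisons. KO-TRAMP at 10 weeks, at 614, 674 and 554 CPM, lay wholly below WT-TRAMP at 798, 959 and 696 CPM, as in 8.75% of miRNAs, by -0.40 ± 0.27 (limma, adjusted p = 0.871). The contrasts of the mutant effect with and without TRAMP ranged from -0.26 to 0.21 for miR-155-5p, from -1.23 to -0.54 for miR-146a-5p and from -0.41 to 0.64 for miR-146b-5p, with SEs of up to 0.56. The largest, for miR-146a-5p in KO at 10 weeks, had a 95% interval of -2.39 to -0.06 and an adjusted p of 0.337 (limma). Among all miRNAs, 0.389% passed in the KO contrast of 10 weeks, 7.98% in that of 30 weeks and 0% in both A537T contrasts. In the A537T contrasts 41 and 22 miRNAs had an unadjusted p under 0.05, and edgeR and DESeq2 called 0. None of the miRNAs in either NF-κB list passed in the 8 comparisons or the 4 contrasts.

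**Figure D5:**
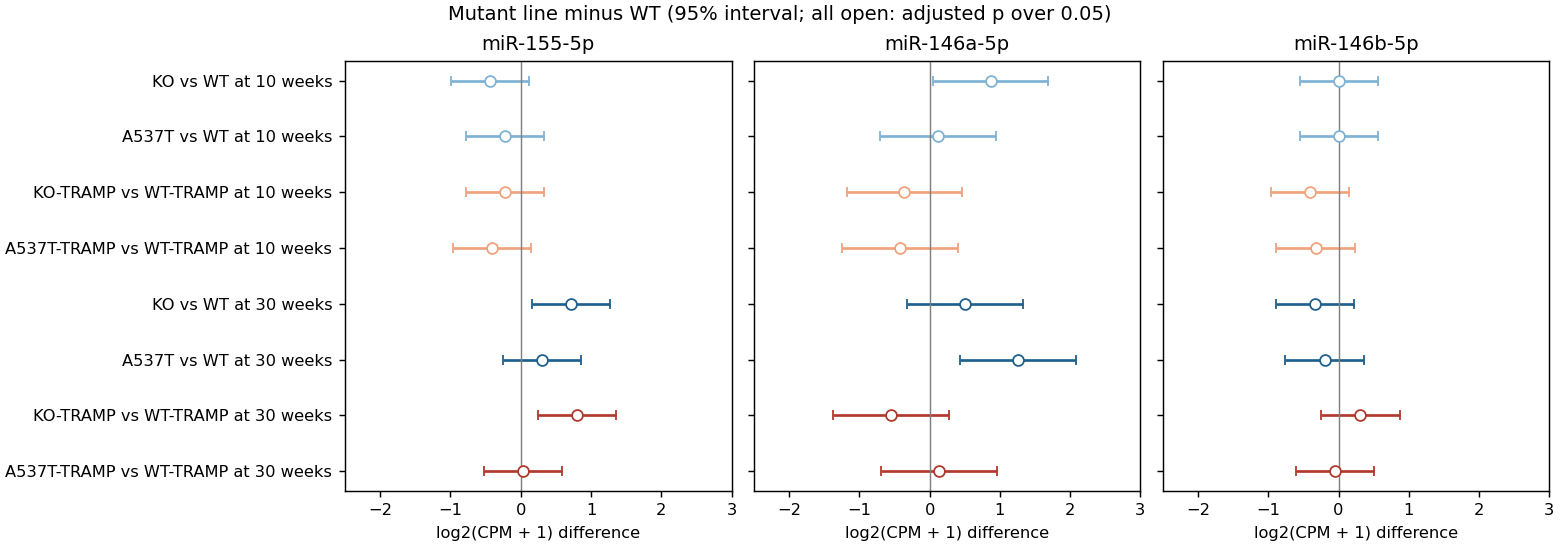
Difference between a mutant line and its control on the log2(CPM + 1) scale, with 95% intervals, in the 8 comparisons for each member. All points are open, as none had an adjusted p under 0.05 in limma. The intervals, which are not adjusted, lie right of 0 for miR-155-5p in KO (0.71) and KO-TRAMP at 30 weeks (0.80) and for miR-146a-5p in KO at 10 weeks (0.87) and A537T at 30 weeks (1.26).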

How the data were processed

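Small RNA libraries (TruSeq Small RNA kit, NovaSeq) were made from 36 prostate samples. The authors merged reads with BBMerge, counted mature miRNAs with mirDeep2 against GRCm38 and miRBase, summed rows of identical sequence, and deposited 8 tables of counts divided by DESeq2 size factors, a normalised signal, of 6 libraries each. The authors' own comparison tables, which hold log2 fold changes and s-values, were not used.

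Whole reads were recovered from the step of each column (100% of 94224 values within 0.01 read), and control columns repeated in 2 tables were identical in 12 of 12 cases. Reads were scaled to CPM by the library total. limma 3.58.1 in R 4.3.3 was run with a trend on log2(CPM + 1), with 12 groups and 36 libraries, on 514 of 1963 miRNAs with a mean of at least 1 CPM (389 had no read). Tests were two-sided, with Benjamini-Hochberg adjustment within each comparison at 0.05. The adjusted p-values thus come from a model fitted across all tested miRNAs. edgeR 4.0.16, DESeq2 1.42.0, TMM scaling, other pseudocounts, filters and totals, fits on the compared libraries alone, the deposited values as they stand, and leaving out each library were alternatives. Wilson intervals at 95% cover counting error only. The scripts were tested on simulated data. The members and lists were chosen with earlier results of these data known. Named miRNAs were the members, their other arms, the listed miRNAs and the 5 most correlated with each member.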

Additional observations from a re-analysis of the deposited data

Results flagged for a closer look

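The effect of TRAMP on miR-155-5p differed between the ages. The mean effect over the 3 lines was -0.87 ± 0.16 on the log2(CPM + 1) scale at 10 weeks and 0.69 ± 0.16 at 30 weeks, and the difference of 1.56 ± 0.22 passed in limma (adjusted p = 4.09e-05). The effect was negative in 3 of 3 lines at 10 weeks and positive in 3 of 3 lines at 30 weeks. All TRAMP libraries of an age are consecutive in library number, so a library block cannot be told apart from TRAMP and age.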

How the results depend on the processing

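Under the alternatives that kept all libraries, 512 member values kept their direction and their side of the threshold of 0.05, 19 no longer passed, 19 newly passed and 41 changed sign, none of which had passed. With 1 library left out, 664 kept both, 20 no longer passed, 3 newly passed and 33 changed sign. The 3 mean TRAMP values of miR-155-5p kept their call under every alternative run. The cause of the changes was not tested. No paired analysis was possible because the columns carry a library number and no replicate number. The depth limits miR-155-5p most in library 35, where it had 33 reads, and intervals and the limit of 3 reads cover counting error only. 

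With log2(CPM + 10), calls were lost for miR-155-5p in KO-TRAMP against KO at 10 weeks (-0.52). Under that setting, calls were gained for miR-155-5p in KO-TRAMP against WT-TRAMP at 30 weeks (0.73). With no minimum mean, calls were lost for miR-155-5p in KO-TRAMP against KO at 10 weeks (-0.67) and WT-TRAMP against WT at 30 weeks (0.75). Under TMM scaling, calls were lost for miR-155-5p in KO-TRAMP against KO at 10 weeks (-0.48) and KO-TRAMP against KO at 30 weeks (0.53) and for miR-146b-5p in KO-TRAMP with age (0.57). Under that setting, calls were gained for miR-155-5p in KO against WT at 30 weeks (0.91) and KO with age (0.90) and for miR-146a-5p in A537T-TRAMP against A537T at 10 weeks (0.98). Under that setting, the sign changed for miR-155-5p in A537T-TRAMP against WT-TRAMP at 30 weeks (-0.065), the A537T contrast with and without TRAMP at 10 weeks (0.15) and the KO contrast with and without TRAMP at 30 weeks (-0.27), for miR-146a-5p in A537T against WT at 10 weeks (-0.070) and for miR-146b-5p in KO against WT at 10 weeks (-0.18), A537T against WT at 10 weeks (-0.18), KO with age (0.099) and the A537T contrast with and without TRAMP at 10 weeks (0.010). With skeletal muscle miRNAs taken out of the totals, calls were gained for miR-146b-5p in the age difference of the mean TRAMP effect (0.60). Under that setting, the sign changed for miR-155-5p in A537T with age (-0.034) and the A537T contrast with and without TRAMP at 10 weeks (0.0085), for miR-146a-5p in A537T against WT at 10 weeks (-0.079) and the age difference of the mean TRAMP effect (0.073) and for miR-146b-5p in KO against WT at 10 weeks (-0.28), A537T against WT at 10 weeks (-0.19), WT with age (-0.080) and A537T with age (-0.092). By edgeR's quasi-likelihood test, calls were lost for miR-155-5p in KO-TRAMP against KO at 10 weeks (-0.45) and KO-TRAMP against KO at 30 weeks (0.53) and for miR-146b-5p in KO-TRAMP with age (0.69). Under that setting, calls were gained for miR-155-5p in KO against WT at 30 weeks (0.89) and KO with age (0.91) and for miR-146a-5p in A537T-TRAMP against A537T at 10 weeks (0.98) and A537T against WT at 30 weeks (1.59). Under that setting, the sign changed for miR-155-5p in KO-TRAMP against WT-TRAMP at 10 weeks (0.0035), A537T-TRAMP against WT-TRAMP at 30 weeks (-0.031), the A537T contrast with and without TRAMP at 10 weeks (0.15) and the KO contrast with and without TRAMP at 30 weeks (-0.24), for miR-146a-5p in A537T-TRAMP against A537T at 30 weeks (-0.080) and A537T against WT at 10 weeks (-0.11) and for miR-146b-5p in KO against WT at 10 weeks (-0.19), A537T against WT at 10 weeks (-0.16), KO with age (0.11) and the A537T contrast with and without TRAMP at 30 weeks (-0.045). By DESeq2's Wald test, calls were lost for miR-155-5p in KO-TRAMP against KO at 10 weeks (-0.29). Under that setting, calls were gained for miR-155-5p in KO against WT at 10 weeks (-0.68), KO against WT at 30 weeks (0.98), KO-TRAMP against WT-TRAMP at 30 weeks (0.73) and KO with age (1.15), for miR-146a-5p in A537T-TRAMP against A537T at 10 weeks (1.06) and A537T against WT at 30 weeks (1.64) and for miR-146b-5p in the mean TRAMP effect at 10 weeks (0.42). Under that setting, the sign changed for miR-155-5p in KO-TRAMP against WT-TRAMP at 10 weeks (1.4e-05), A537T-TRAMP against WT-TRAMP at 30 weeks (-0.024), the A537T contrast with and without TRAMP at 10 weeks (0.13) and the KO contrast with and without TRAMP at 30 weeks (-0.24), for miR-146a-5p in A537T-TRAMP against A537T at 30 weeks (-0.13) and A537T against WT at 10 weeks (-0.059) and for miR-146b-5p in KO against WT at 10 weeks (-0.25), A537T against WT at 10 weeks (-0.16), KO with age (0.36), the KO contrast with and without TRAMP at 10 weeks (0.047) and the A537T contrast with and without TRAMP at 30 weeks (-0.092). With only the compared libraries fitted, calls were lost for miR-155-5p in WT-TRAMP against WT at 10 weeks (-0.88), KO-TRAMP against KO at 10 weeks (-0.67), WT-TRAMP against WT at 30 weeks (0.75), KO-TRAMP with age (2.21) and A537T-TRAMP with age (1.63), for miR-146a-5p in A537T with age (1.62) and the mean TRAMP effect at 30 weeks (0.68) and for miR-146b-5p in KO-TRAMP against KO at 30 weeks (1.06) and KO-TRAMP with age (0.89). Under that setting, calls were gained for miR-155-5p in KO with age (0.70), for miR-146a-5p in A537T-TRAMP against A537T at 10 weeks (0.82) and for miR-146b-5p in the mean TRAMP effect at 10 weeks (0.24). On the deposited normalised counts, the sign changed for miR-155-5p in A537T-TRAMP against WT-TRAMP at 30 weeks (-0.071), for miR-146a-5p in A537T against WT at 10 weeks (-0.037) and for miR-146b-5p in KO against WT at 10 weeks (-0.19) and A537T against WT at 10 weeks (-0.14).

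With 1 library left out at a time, the side of the threshold changed for miR-155-5p in WT-TRAMP against WT at 10 weeks (-1.01 to -0.67), KO-TRAMP against KO at 10 weeks (-0.90 to -0.47), WT-TRAMP against WT at 30 weeks (0.41 to 1.03), KO-TRAMP against KO at 30 weeks (0.75 to 0.92) and WT-TRAMP with age (0.98 to 1.32). It changed for miR-146a-5p in WT-TRAMP against WT at 10 weeks (1.01 to 1.64), A537T with age (0.94 to 2.13) and the mean TRAMP effect at 30 weeks (0.51 to 0.91). It changed for miR-146b-5p in A537T-TRAMP against A537T at 30 weeks (0.31 to 0.88), KO-TRAMP with age (0.55 to 1.19) and the age difference of the mean TRAMP effect (0.33 to 0.55). The sign changed for miR-155-5p in A537T against WT at 30 weeks (-0.036 to 0.59), A537T-TRAMP against WT-TRAMP at 30 weeks (-0.29 to 0.23), A537T with age (-0.035 to 0.16), the KO contrast with and without TRAMP at 10 weeks (-0.021 to 0.41), the KO contrast with and without TRAMP at 30 weeks (-0.20 to 0.43) and the A537T contrast with and without TRAMP at 30 weeks (-0.59 to 0.071). It changed for miR-146a-5p in KO-TRAMP against KO at 30 weeks (-0.071 to 0.75), A537T-TRAMP against A537T at 30 weeks (-0.23 to 0.96), A537T against WT at 10 weeks (-0.22 to 0.40), A537T-TRAMP against WT-TRAMP at 30 weeks (-0.15 to 0.39), KO-TRAMP with age (-0.089 to 0.73) and the age difference of the mean TRAMP effect (-0.25 to 0.15). It changed for miR-146b-5p in KO against WT at 10 weeks (-0.042 to 0.055), A537T against WT at 10 weeks (-0.091 to 0.15), KO-TRAMP against WT-TRAMP at 30 weeks (-0.025 to 0.61), A537T-TRAMP against WT-TRAMP at 30 weeks (-0.31 to 0.15), A537T with age (-0.28 to 0.20), WT-TRAMP with age (-0.029 to 0.41) and the A537T contrast with and without TRAMP at 30 weeks (-0.11 to 0.47).

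The number of miRNAs called moved by more than 1.5 times under some alternative in these comparisons. For TRAMP it was 184 in KO at 30 weeks and 92 with only the compared libraries, and 56 in A537T at 30 weeks and 87 by DESeq2. For KO against WT it was 20 at 10 weeks (0 to 40 under the alternatives) and 3 at 30 weeks (0 to 65), and for A537T against WT 1 (0 to 2) and 0 (0 to 21). With TRAMP it was 32 for KO at 30 weeks (0 to 65), and for A537T 0 at 10 weeks (0 to 1) and 0 at 30 weeks (0 to 8). With age it was 49 in WT (19 to 63), 76 in KO (59 to 171), 39 in WT-TRAMP (35 to 106), 114 in KO-TRAMP (0 to 150) and 28 in A537T-TRAMP (0 to 29). For the contrasts with and without TRAMP it was 2 for KO (0 to 14) and 0 for A537T (0 to 1) at 10 weeks, and 41 for KO at 30 weeks (1 to 85).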
